A study of Mus musculus with 12 samples.

Results

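The peaks described here are the ATAC-seq peaks of mouse bone marrow that lay between genes but not far from them. A peak was included when it sat on a numbered chromosome, spanned under 3000 bp and had its centre outside every protein-coding gene and 3 to 50 kb from the nearest protein-coding gene end in RefSeq. This rule took 15283 of 75281 peaks, or 20.3%, and used no measured value, but it was chosen with earlier results of these data known. They fell into 5569 intervals between neighbouring genes. Counts were high enough to test 15229 of them, and the other 54 were too low.

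The libraries came from bone marrow of NZO/HILtJ mice, an inbred line that becomes obese and often diabetic, at 2 ages. There were 3 females and 3 males at 3 months and 3 females and 3 males at 18 months, with no treatment or engineered allele in the labels, and the mouse number at the end of each sample name (BM-35, for example) served as the replicate number. All 18-month females were sequenced in run 14 and all 18-month males in run 15, while the 3-month mice were spread over runs 28 to 31. No run held both ages, so age and sequencing run cannot be told apart, and at 18 months neither can sex and run. The labels say no more on how the mice were kept or their marrow prepared, so p-values measure the spread between these libraries.

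ATAC-seq uses the Tn5 transposase, which inserts sequencing adapters where DNA is not wrapped in nucleosomes, so reads over a region measure how open its chromatin is. Open sites between genes hold many enhancers, stretches bound by transcription factors that raise transcription of a gene at a distance, along with insulators and the start sites of non-coding RNAs. In blood formation, enhancers are more specific to a cell type than promoters are. The best known is the locus control region upstream of the beta-globin genes, which drives globin transcription in red cell precursors. A peak is named below by the protein-coding genes on its left and right, which need not be the genes it acts on.

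No genome sequence was used here, so the letters of the peaks themselves are not shown. Some members wholly held the RefSeq promoter window of a long non-coding RNA (lncRNA) around its start, and those windows show what kind of sequence lay inside. The 6 windows below belong to the 3 largest rises and 3 largest falls with age among such members that passed the test, stood at or above the median level and did not overlap between ages. They are printed 5′ to 3′ on the strand of the lncRNA, from RefSeq on GRCm38.p6. Gm41546 is at chr17:23967015-23967314 (+ strand), Gm41485 at chr16:87612372-87612671 (- strand) and Gm35889 at chr7:35156787-35157086 (- strand), all in peaks that rose. 5430401H09Rik is at chr12:32123757-32124056 (- strand), Gm32900 at chr3:101354554-101354853 (- strand) and Gm39783 at chr2:30771296-30771595 (+ strand), all in peaks that fell. Capitals mark the letters TGTGGT, the core bound by RUNX factors.
Gm41546: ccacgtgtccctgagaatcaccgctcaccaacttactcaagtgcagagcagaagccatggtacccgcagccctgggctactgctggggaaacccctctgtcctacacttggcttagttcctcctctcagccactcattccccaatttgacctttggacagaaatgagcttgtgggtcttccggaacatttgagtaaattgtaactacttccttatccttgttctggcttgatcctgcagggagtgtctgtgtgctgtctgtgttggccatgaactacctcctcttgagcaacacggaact
Gm41485: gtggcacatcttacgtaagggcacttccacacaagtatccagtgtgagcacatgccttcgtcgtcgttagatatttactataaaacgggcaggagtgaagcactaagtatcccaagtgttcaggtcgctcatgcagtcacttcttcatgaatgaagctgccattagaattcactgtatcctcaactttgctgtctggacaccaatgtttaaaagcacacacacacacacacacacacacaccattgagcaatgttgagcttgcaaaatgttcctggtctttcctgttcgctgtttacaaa
Gm35889: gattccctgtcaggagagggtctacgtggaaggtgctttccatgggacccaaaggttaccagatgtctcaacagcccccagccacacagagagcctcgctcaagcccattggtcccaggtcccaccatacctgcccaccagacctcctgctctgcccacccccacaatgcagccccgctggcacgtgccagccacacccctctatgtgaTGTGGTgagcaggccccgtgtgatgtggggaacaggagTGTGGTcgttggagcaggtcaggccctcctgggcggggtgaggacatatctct
5430401H09Rik: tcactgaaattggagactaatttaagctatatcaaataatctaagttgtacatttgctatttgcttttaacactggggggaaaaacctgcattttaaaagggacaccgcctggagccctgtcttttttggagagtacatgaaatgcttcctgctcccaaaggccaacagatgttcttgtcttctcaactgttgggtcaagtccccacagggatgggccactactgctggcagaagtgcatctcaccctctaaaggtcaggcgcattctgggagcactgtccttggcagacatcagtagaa
Gm32900: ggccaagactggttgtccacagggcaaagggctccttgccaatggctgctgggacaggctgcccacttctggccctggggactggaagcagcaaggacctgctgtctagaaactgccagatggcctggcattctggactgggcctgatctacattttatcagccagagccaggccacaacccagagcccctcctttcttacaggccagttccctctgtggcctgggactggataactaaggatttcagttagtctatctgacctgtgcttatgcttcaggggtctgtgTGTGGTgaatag
Gm39783: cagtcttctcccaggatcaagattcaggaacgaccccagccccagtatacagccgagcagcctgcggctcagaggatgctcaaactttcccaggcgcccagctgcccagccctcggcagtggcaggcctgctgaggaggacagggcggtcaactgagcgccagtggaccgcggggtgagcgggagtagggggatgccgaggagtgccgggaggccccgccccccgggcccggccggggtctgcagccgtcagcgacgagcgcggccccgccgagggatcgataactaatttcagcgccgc
Each window was searched on both strands for 7 motifs. They were the letters AGATAA for GATA factors, GAGGAAGT for PU.1, TTGCGCAA for C/EBP, TGANTCA for AP-1 and TGTGGT for RUNX, and an IRF motif and a CTCF core motif. Of the 7 motifs, only the RUNX letters were found, with 2 matches in Gm35889 and 1 in Gm32900. Among all 32851 promoter windows of the same length in the RefSeq table, 16.8% held the RUNX letters. The AGATAA letters were in 11.2%, TGANTCA in 7.81%, the IRF motif in 3.44%, GAGGAAGT in 3.20%, the CTCF core in 0.326% and TTGCGCAA in 0.183%. A match describes letters and not a bound site.

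In all, 12 members touched 17 microRNA (miRNA) hairpins. One of them, between Slitrk5 and Gpc5, held the miR-17-92 cluster, whose miRNAs act in lymphocyte and myeloid growth. Of its mature miRNAs, 1 arm of each hairpin is printed with the seed, bases 2 to 8, in capitals and grouped by seed, followed by the miRNAs of the 2 such members that passed the age threshold.
miR-17-5p: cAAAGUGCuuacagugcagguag
miR-20a-5p: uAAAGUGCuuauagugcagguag
miR-18a-5p: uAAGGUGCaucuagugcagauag
miR-19a-3p: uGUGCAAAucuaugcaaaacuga
miR-19b-3p: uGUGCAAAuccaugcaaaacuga
miR-92a-3p: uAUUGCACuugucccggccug
miR-8096: gGGCACGGuagcugaagagu
miR-5103: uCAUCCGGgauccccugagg
miR-17-5p and miR-20a-5p share the seed AAAGUGC, and miR-19a-3p and miR-19b-3p share GUGCAAA.

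The libraries held 7668099 to 12756647 counts in peaks. Members took 13.4% to 14.1% of the counts at 18 months and 12.1% to 13.2% at 3 months, so the ages did not overlap. The labels name bone marrow, while the protocol describes a sort of CD3e+ CD8+ T cells, so markers were checked in peaks within genes or under 3 kb from them. The peak at Hbb-bs, an adult globin gene, stood at 21.3 to 66.1 CPM (counts scaled to a common library total) over the 12 libraries. Those at S100a8, a neutrophil gene, and Cd79a, a B cell gene, stood at 21.8 to 52.6 and 30.0 to 48.3. No tested peak was centred within 3 kb of Cd3e or Cd8a, and 10 of 29 T and NK cell genes had no such peak. Among the 3-month libraries, male BM-253 had the highest summed level for 9 of the 10 marker lists, all but the erythroid one.

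At 18 months, 2069 members (13.6%) were more open and 1120 (7.35%) less open than at 3 months (edgeR quasi-likelihood test, sex as covariate, Benjamini-Hochberg adjusted p under 0.05). Over all 75164 tested peaks the test called 21.0%, of which 9.43% of peaks were higher and 11.6% lower. Members were thus called about as often as all peaks, but 64.9% of their calls were rises. Most changes were small. The median size of a called log2 change was 0.54, and 23 rises and 47 falls reached 1 on the log2 scale. The CPM of the 6 libraries of each age did not overlap at 6.84% of members, 487 with 18 months above and 554 below. That compares with 7.24% of all tested peaks, 2.20% above and 5.04% below.

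The balance of rises and falls moved with distance from the gene. Between 3 and 5 kb from a gene end, 8.65% of members rose and 7.33% fell. The share that rose was 11.7% at 5 to 10 kb, 13.7% at 10 to 20 kb, 17.3% at 20 to 30 kb and 17.02% at 30 to 50 kb, while the share that fell stayed between 6.75% and 8.43%. Peaks closer to genes had the opposite balance, with 7.26% higher and 11.8% lower inside genes and 6.77% and 12.2% outside but under 3 kb away. Beyond 50 kb, 18.2% were higher and 6.46% lower. These shares are descriptions, and the differences between classes were not tested. In the nearest class the order of rises and falls rested on single libraries. Without 3-month female BM-245, 122 members at 3 to 5 kb were higher and 138 lower, and without 18-month male BM-40 the counts were 137 and 139. Scaling by total counts gave 316 rises and 121 falls there, and 699, 886 and 616 rises in the next 3 classes, which had 452, 584 and 408 with TMM factors. Just inside the 3 kb limit the median log2 change of 200 members was 0.10, against 0.04 for the 200 peaks just outside. At the 50 kb limit the medians were 0.16 inside and 0.14 outside, and at the 3000 bp width limit -0.06 and -0.02.

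**Figure D1:**
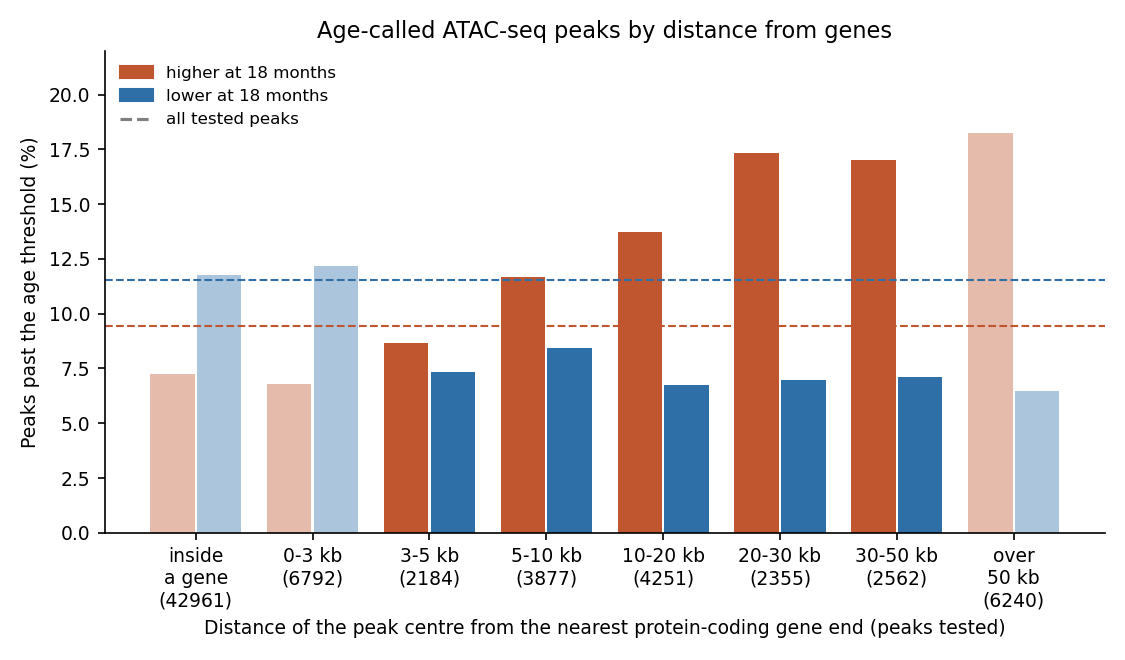
Share of tested peaks (y axis, %) called higher (orange) or lower (blue) at 18 months, by distance of the peak centre from the nearest protein-coding gene end (x axis, number tested in brackets). Dark bars are the peaks described here, pale bars the other peak classes and dashed lines all tested peaks. The share higher goes from 8.65% at 3 to 5 kb to 17.02% at 30 to 50 kb, while the share lower stays between 6.75% and 8.43%.

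Width, level and chromosome also went with the balance. Beside the 13.6% of all members that rose and the 7.35% that fell, the shares among 5241 members under 500 bp wide were 10.9% and 2.46%, and among 1105 from 1500 bp up 15.8% and 24.6%. Of the 3808 members of lowest mean level, 8.59% rose and 1.89% fell. Of the 3807 of highest level, 19.1% rose and 15.7% fell. Narrow or low members thus had fewer calls in both directions, and the difference was larger for falls. The share that rose ranged from 9.89% on chromosome 11 to 20.5% on chromosome 12. It was close on either side of the gene: 13.6% of 6897 members upstream of a start rose and 13.5% of 5260 downstream of an end, where the RefSeq promoter table gave the strand. Among the 3183 tested members inside a non-coding RefSeq gene, 13.2% rose and 8.39% fell.

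The scaling of libraries set how far the balance leaned. Scaling by total counts gave 3142 higher and 843 lower, so that 78.8% of calls were rises. Offsets smoothed on peak width gave 1633 and 1125, or 59.2% rises, and offsets smoothed on abundance 1852 and 1221. DESeq2 gave 1886 and 1138. Rises outnumbered falls under each of these, and the median log2 change of members lay 0.06 to 0.09 above that of all peaks. Total counts shifted all peaks as well, with a median over all of 0.10 against 0.02 with TMM factors.

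**Figure D2:**
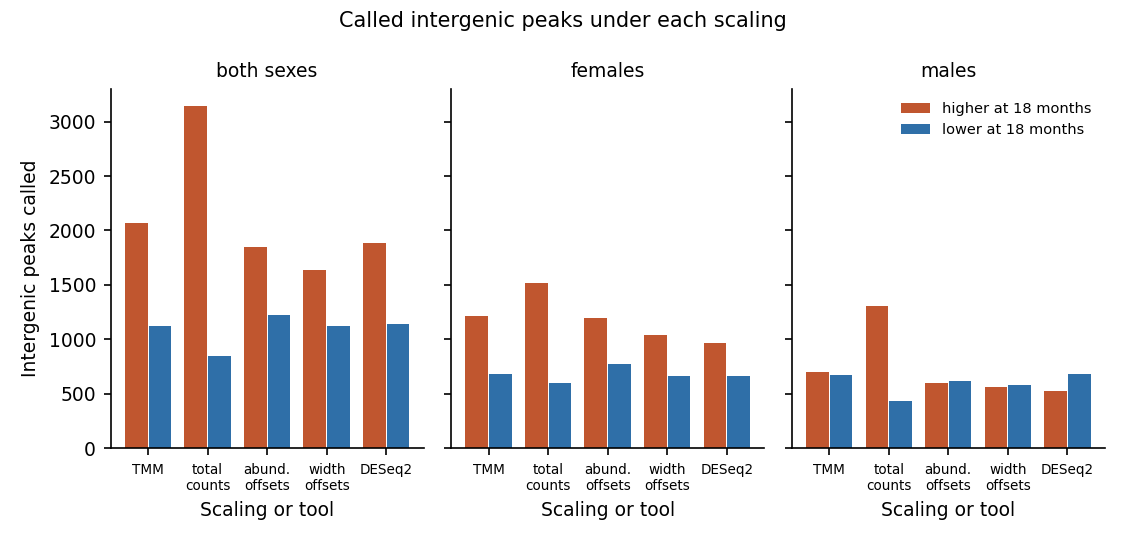
Number of intergenic peaks called (y axis) higher (orange) or lower (blue) at 18 months under each scaling or tool (x axis), for both sexes with sex as covariate (left), females (middle) and males (right). With both sexes, rises outnumber falls under all 5. In males the order changes with the scaling, from 1304 against 431 with total counts to 525 against 680 with DESeq2.

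The 10 largest falls were taken among members that passed the test, stood at or above the median level and showed no overlap between ages. The steepest, 32.4 kb from Epm2a (laforin, a glycogen phosphatase) on the side of Utrn (utrophin), at chr10:11491978-11492219, ranged over 8.50, 9.42 and 13.5 CPM (lowest, median, highest) at 18 months and 21.1, 27.7 and 38.4 at 3 months. It fell by 1.45 ± 0.13 (SE) on the log2 scale (edgeR adjusted p = 2.21e-11). Beside Rbm38, an RNA-binding protein that controls splicing in maturing red cells, a peak 3.52 kb from the gene (chr2:173037165-173039335) stood at 23.7, 29.6 and 32.2 CPM at 18 months against 50.9, 66.8 and 73.8, a fall of 1.18 ± 0.10 (adjusted p = 2.85e-12). Aqp1 encodes the water channel of the red cell membrane. The peak 10.5 kb from it, toward Ghrhr (chr6:55358662-55359363), stood at 7.32, 9.62 and 10.6 CPM against 15.4, 21.5 and 26.8 and fell by 1.18 ± 0.13 (adjusted p = 9.13e-10). Between Trim59, a ubiquitin ligase, and Kpna4, a nuclear import receptor (chr3:69054328-69055768), levels were 14.03, 15.3 and 16.9 CPM against 28.3, 34.1 and 42.1, a log2 change of -1.17 ± 0.11 (adjusted p = 2.21e-11). Each of these 4 peaks was lower in all 6 older libraries than in any younger one, as the rule required. Their changes lay between -1.09 and -1.52 in females and males taken apart.

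Usp14, a deubiquitinase of the proteasome, and Rock1, a kinase of the cytoskeleton, flanked a peak on chromosome 18 that changed by -1.33 (SE 0.15), from a median of 11.4 to 4.5 CPM. The change was -1.15 between Fnip2, which binds folliculin, and Ppid, a cyclophilin. It was -1.14 between Chp1 and Oip5, a factor that loads histones at centromeres, and -1.12 between Defb42 and the lysosomal protease gene Ctsb. Another, 8.65 kb from the chemokine gene Ccl17 toward Cx3cl1 (chr8:94800292-94801161), changed by -1.11. At that peak 3-month male BM-252 stood at 10.0 CPM, near the 18-month range of 6.19 to 8.97, while the other younger libraries were at 17.6 to 19.0.

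The 10 largest rises were taken by the same rule. A peak 48.4 kb from Prok2, which encodes a secreted peptide of neutrophils and other cells, toward Rybp (chr6:99774546-99775082), stood at 11.5, 14.4 and 18.9 CPM at 18 months and 5.39, 6.90 and 11.3 at 3 months. It rose by 1.01 ± 0.14 (SE) on the log2 scale (edgeR adjusted p = 4.56e-07). Ripk2, the kinase that relays signals from the bacterial sensors NOD1 and NOD2, had 2 such peaks on its Osgin2 side, 20.7 and 34.2 kb away. The nearer (chr4:16101433-16102573) was at 9.66, 11.3 and 12.9 CPM against 4.85, 6.03 and 6.90, a rise of 0.94 ± 0.14 (adjusted p = 1.21e-06), and the farther rose by 0.88. Litaf encodes a factor induced by bacterial lipopolysaccharide. The peak 19.97 kb upstream of it toward Snn (chr16:11012656-11013529) stood at 9.98, 13.3 and 16.0 CPM against 6.34, 6.96 and 8.03 and rose by 0.90 ± 0.14 (adjusted p = 1.52e-06). Between Lilra5, a leukocyte receptor gene, and Ncr1, the natural killer cell receptor NKp46 (chr7:4273770-4274424), 30.4 kb from the first and 63.6 kb from the second, levels were 7.15, 9.76 and 13.05 CPM against 3.42, 5.12 and 6.28, a change of 0.95 ± 0.16. Older libraries were above younger ones throughout at these peaks, which the same rule required.

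The largest of these 10 rises, 36.7 kb from the kinesin gene Kif21a toward Cpne8 (chr15:90896042-90897184), stood at 10.9, 17.9 and 22.2 CPM against 5.91, 8.84 and 10.6, a rise of 1.02 ± 0.14 (adjusted p = 4.13e-07). A peak 13.04 kb upstream of Noct, a phosphatase gene under circadian control, rose by 1.01, and 1 between Rtp4 and Sst, the somatostatin gene, by 0.99. The peak 22.4 kb upstream of the corepressor gene Tle3 rose by 0.87. Between Sbpl and the serine protease gene Prss30, the peak that held the start of Gm41546 (sequence above) stood at 9.98 to 11.9 CPM at 18 months and 5.07 to 7.17 at 3 months, a rise of 0.87 ± 0.14 (adjusted p = 6.57e-06). All 20 peaks, chosen for size and for no overlap between ages, passed the threshold in the same direction when any 1 library was left out.

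**Figure D3:**
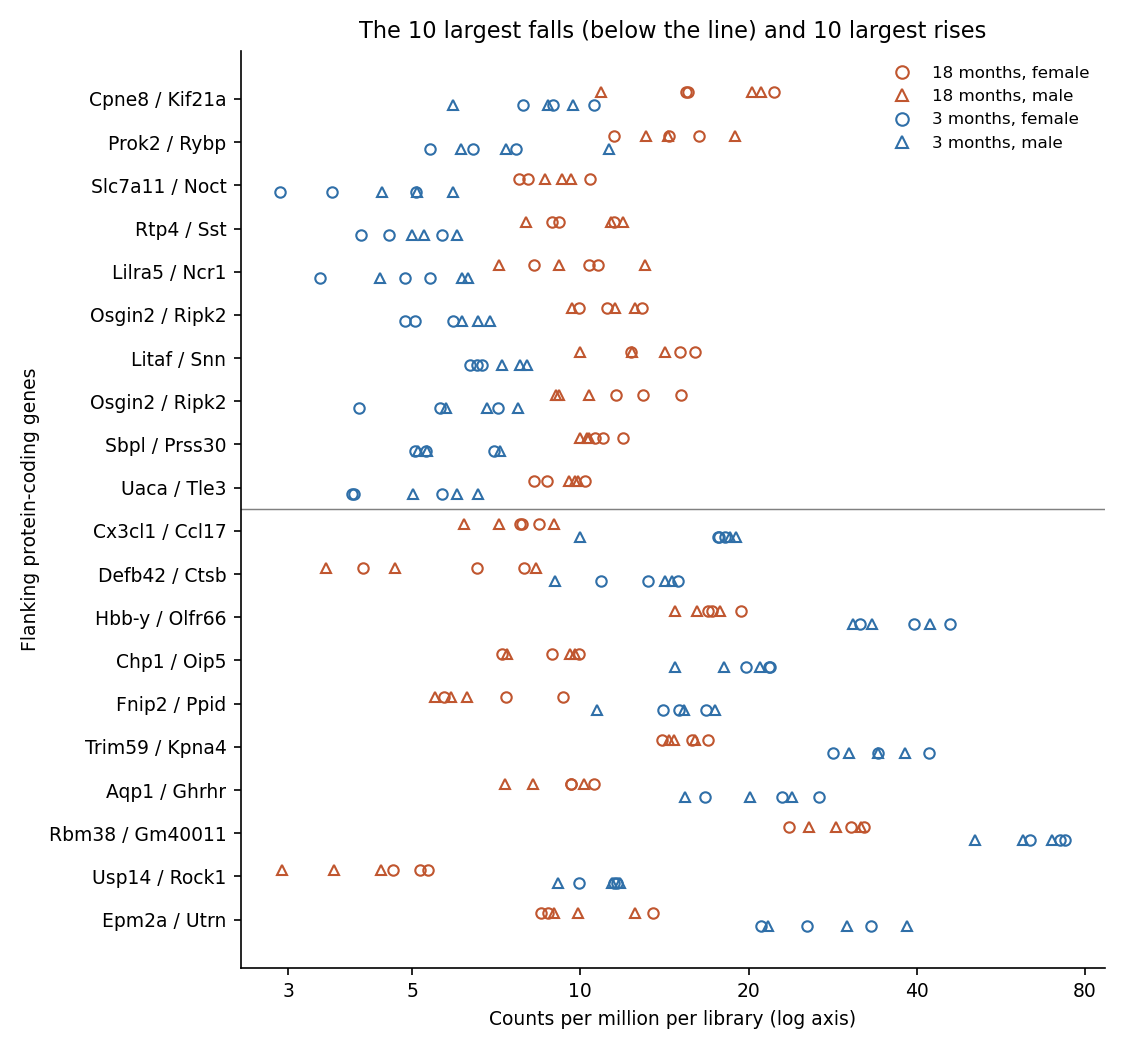
CPM in each of the 12 libraries (x axis, log scale) at the 10 largest falls (below the line) and 10 largest rises, named by the flanking genes (y axis). Orange marks 18 months and blue 3 months, circles females and triangles males. At each peak the 2 ages do not overlap, which the rule for choosing them required.

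The gene lists used from here on were chosen with earlier results of these data known, so their counts are a description. Of 90 tested members flanked within 50 kb by 25 genes of red cell formation (an erythroid list), 30 fell and 0 rose, where 7.35% of all members fell and 13.6% rose. The 90 had a median log2 change of -0.31 against 0.12 for all members. Their summed level was 650 to 698 CPM at 18 months and 796 to 943 at 3 months, with no overlap. Near Slc4a1, the anion exchanger of the red cell membrane, a peak on the Rundc3a side (chr11:102372358-102374646) stood at 13.2, 15.1 and 17.9 CPM against 24.8, 31.2 and 35.6 and changed by -0.97 ± 0.11 (edgeR adjusted p = 3.68e-09). Rhag, a subunit of the Rh complex, had a peak 4.52 kb away toward Crisp2 (chr17:40805385-40807777) that changed by -0.85, from a median of 35.5 to 18.6 CPM. Gfi1b encodes a repressor needed for red cell and platelet formation, and a peak 7.48 kb from it (chr2:28601273-28602673) changed by -0.84. A peak 3.57 kb from the adult globin gene Hbb-bt (chr7:103807721-103810180) changed by -0.82 and stood at 15.3 to 17.7 CPM against 28.7 to 31.5.

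The erythroid list had 0 rises without any 1 library, 21 falls without 3-month male BM-251 and 41 without 3-month male BM-253, and scaling by total counts left 19 falls and 0 rises. Peaks within or near the list's own genes moved the same way. Their summed level was 4542 to 4745 CPM at 18 months and 6510 to 7713 at 3 months, 37 of 39 genes were lower at their tallest peak, and Hbb-bs stood at 21.3 to 24.4 CPM against 44.4 to 66.1. Of 15501 protein-coding genes with such a peak, 5.44% were higher and 26.4% lower at the tallest. In a mixed tissue such as bone marrow, which the labels name, fewer cells of a type and less open chromatin per cell cannot be told apart.

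Between the embryonic globin gene Hbb-y and Olfr66 lies the stretch that holds the beta-globin locus control region, and all 7 members in it fell. Their summed level was 60.6 to 70.0 CPM at 18 months and 109 to 144 at 3 months. The tallest, 17.3 kb from Hbb-y (chr7:103869404-103871640), stood at 14.8, 17.1 and 19.4 CPM against 30.8, 36.4 and 45.8 and fell by 1.12 ± 0.11 (edgeR adjusted p = 4.56e-11), which placed it among the 10 largest falls. Its neighbours farther out, 21.1 kb (chr7:103873006-103875559) and 24.0 kb (chr7:103875946-103878429) from Hbb-y, changed by -0.95 ± 0.11 and -0.87 ± 0.11. A peak 15.5 kb from Hbb-y (chr7:103868283-103869127) changed by -1.05 from a median of 9.49 to 4.39 CPM. The members nearest to the gene were low and changed least, by -0.65 at 4.26 kb, -0.55 at 9.73 kb and -0.58 at 11.0 kb. Only the member at 4.26 kb overlapped between ages. At least 6 of the 7 stayed past the threshold without any 1 library.

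**Figure D4:**
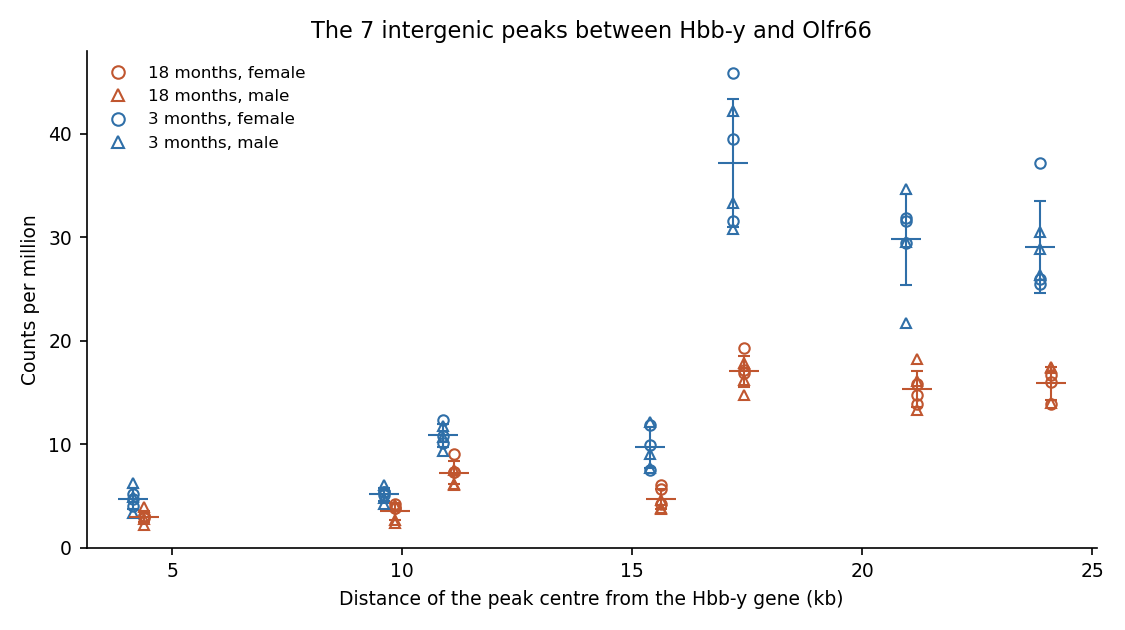
CPM (y axis) at the 7 intergenic peaks between Hbb-y and Olfr66 by distance from Hbb-y (x axis, kb), for 18 months (orange) and 3 months (blue), females as circles and males as triangles. Horizontal ticks with bars are the mean and SD of the 6 libraries of an age. The summed level is 60.6 to 70.0 at 18 months and 109 to 144 at 3 months.

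Of 98 tested members beside 27 genes of the neutrophil list, 30 rose (30.6%, against 13.6% of all members) and 3 fell (3.06%, against 7.35%), with a median log2 change of 0.24 against 0.12. Their summed level was 1053 to 1191 CPM at 18 months and 860 to 1154 at 3 months, so the ages overlapped. Ngp encodes a protein of neutrophil granules. A peak 4.49 kb from it toward Ptpn23 (chr9:110414754-110415874) stood at 25.8, 28.6 and 34.1 CPM against 15.2, 17.5 and 26.1 and rose by 0.64 ± 0.11 (edgeR adjusted p = 2.13e-05). Trem1, a receptor that amplifies inflammatory signals on neutrophils and monocytes, had a peak 16.998 kb upstream (chr17:48215354-48216076) that rose by 0.84, with 18-month male BM-40 at 14.3 CPM above the 6.80 to 8.97 of the other older libraries. One of the 3 falls lay 3.43 kb upstream of Clec4e, the receptor Mincle (chr6:123292424-123294178), at 15.3 to 21.04 CPM against 26.9 to 32.1, a change of -0.72 ± 0.10. Without 3-month male BM-251 the neutrophil list had 19 rises, and without 3-month male BM-253 it had 39. Its 3 falls became 5 without 18-month female BM-36 or 3-month female BM-244. Peaks at the neutrophil genes themselves summed to 2083 to 2376 CPM at 18 months and 1632 to 2490 at 3 months. The 2490 was male BM-253 and the next younger library stood at 1867. Of 33 such genes, 16 were higher at their tallest peak and 0 lower, against 5.44% and 26.4% of all genes.

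AP-1 and NF-kB are transcription factors that switch on inflammatory genes. Of 129 tested members beside 27 genes of AP-1, NF-kB and inflammation, 36 rose (27.9%, against 13.6% of all members) and 1 fell, with a median of 0.24 against 0.12, and 18 of the genes had at least 1 rising member. Their summed level was 1536 to 1705 CPM at 18 months and 1234 to 1730 at 3 months. A peak between Jdp2 and Batf, which encode members of the AP-1 family (chr12:85662853-85663290), stood at 5.26, 6.68 and 7.51 CPM against 1.87, 3.05 and 4.24 and rose by 1.12 ± 0.18 (edgeR adjusted p = 4.95e-06). On the far side of Jdp2, 12.4 kb from Fos (chr12:85489021-85490310), levels were 18.4, 21.7 and 23.2 CPM against 12.9, 13.6 and 16.2, a rise of 0.59 ± 0.11. Peaks 5.54 kb from Ercc1 on the side of Fosb and upstream of Fosl2 rose by 0.78 and 0.59 and overlapped between ages. At the Fosl2 peak, 3-month male BM-253 stood at 27.6 CPM against 15.6 to 19.98 in the other younger libraries. The list had 25 to 53 rises when 1 library was left out, the most without male BM-253, and 29 to 51 under the other scalings, with at most 2 falls. At the tallest peaks of the genes themselves, 8 of 33 were higher and 4 lower, against 5.44% and 26.4% of all genes. The sums over peaks at these genes overlapped at 2363 to 2841 CPM at 18 months and 2261 to 3159 at 3 months.

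**Figure D5:**
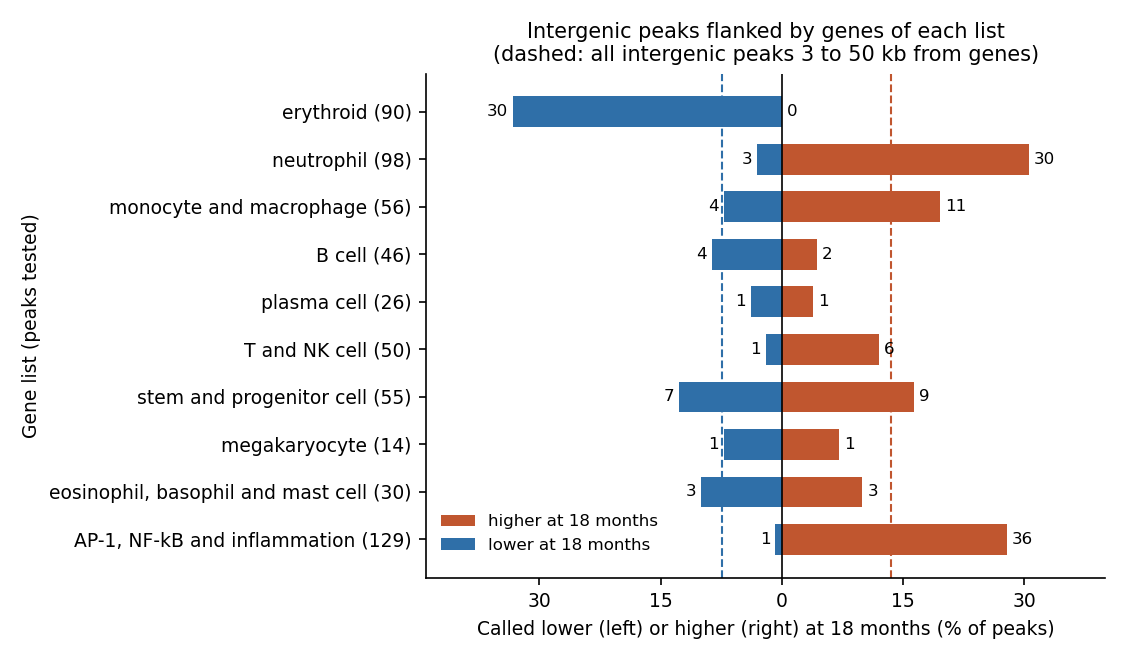
Share of intergenic peaks called lower (left, blue) or higher (right, orange) at 18 months among those flanked within 50 kb by a gene of each list (y axis, number tested in brackets), with the number of peaks at each bar. Dashed lines are the shares over all intergenic peaks 3 to 50 kb from genes. Erythroid peaks lie to the left only, and the called neutrophil and AP-1 peaks mostly to the right.

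Beside monocyte and macrophage genes, 11 of 56 members rose (19.6%, against 13.6% of all members) and 4 fell (7.14%, against 7.35%), so the falls were near the background. Cd14, the lipopolysaccharide co-receptor, had peaks 16.4 kb away, nearer to E230025N22Rik, and 4.70 kb away that rose by 0.85 and 0.75. The farther stood at 27.7, 34.1 and 37.1 CPM at 18 months and 14.4, 16.5 and 29.3 at 3 months, where the 29.3 was male BM-253. A peak between the chemokine receptor genes Ccr3 and Ccr2 (chr9:124061277-124062198) changed by -0.62 and 1 between H2bc18 and Fcgr1, 8.56 kb from the latter, an antibody receptor gene of monocytes, by -0.44. Without 18-month male BM-40 the list had 5 rises, without 3-month female BM-245 it had 6, and without 18-month female BM-36 it had 7, as with width offsets. Without 3-month male BM-253 it had 15 rises and 5 falls.

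Of 46 members beside B cell genes, 2 rose (4.35%, against 13.6% of all members) and 4 fell (8.70%, against 7.35%), so the falls were near the background. They included a peak 13.8 kb from Il7r, the interleukin-7 receptor of B cell precursors (chr15:9491775-9493028), at 8.03 to 11.1 CPM against 11.9 to 17.2, a change of -0.61 ± 0.13 (edgeR adjusted p = 0.000342). Others lay near Bach2 (-0.66) and 12.4 kb from Rnf145, 40.2 kb from the B lineage factor gene Ebf1 (-0.58), and a peak upstream of Bank1 rose by 0.49. The 2 rises became 1 without 18-month female BM-36 and 4 without 3-month male BM-253. The B cell median of -0.01 changed sign with the scaling, to 0.06 with total counts, which also gave 6 rises. Beside T and NK cell genes, 6 of 50 rose and 1 fell, shares of 12% and 2% that did not exceed those of all members. The 6 rises became 3 without 3-month female BM-245 and 10 without male BM-253 or with total counts. Those 6 included a peak 14.3 kb from Osbpl7 and 14.8 kb from Tbx21 (0.60), the T-bet factor of killer lymphocytes, and peaks near Ccl5 (0.66), Ifng (0.50) and Klrb1c (0.37), the NK1.1 receptor. The calls at the Bank1, Ccl5 and Klrb1c peaks did not hold in every fit that left out a library. Plasma cell genes had 1 rise, near Xbp1 (0.39), and 1 fall, 10.01 kb from Dusp22 and 27.99 kb from Irf4 (-0.57), among 26, each share below that of all members. That rise was lost without 18-month females BM-35 or BM-36, male BM-39, or 3-month females BM-245 or BM-243 or male BM-251. There were 2 rises without 3-month males BM-253 or BM-252, and 3 with total counts. The T and NK cell fall was lost without 18-month females BM-36 or BM-42, male BM-40 or 3-month female BM-245 and with total counts, and abundance offsets gave 2.

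Stem and progenitor genes had 9 rises (16.4%, against 13.6% of all members) and 7 falls (12.7%, against 7.35%) among 55 members. Peaks near Erg and between Fli1 and Ets1, all genes of the ETS factor family, rose by 0.39 and 0.41 with no overlap between ages. Peaks near Mllt3 (-0.72) and 12.8 kb from Ahi1, 31.7 kb from the progenitor factor gene Myb (-0.42), fell. The 9 rises became 3 without 18-month female BM-36 or 3-month female BM-245, 5 without 3-month male BM-251, female BM-244 or male BM-252, and 14 without male BM-253. The 7 falls became 3 without 18-month male BM-39 and 4 without 18-month females BM-36 or BM-42 or male BM-40. Total counts gave 3 falls, width offsets 4 falls and abundance offsets 5 rises. Megakaryocyte genes had 1 rise, upstream of Plek (0.47), and 1 fall, upstream of the platelet receptor gene Gp9 (-0.75), among 14, or 7.14% each way. The Plek peak lost its call without 18-month female BM-35, male BM-40, 3-month female BM-245 or male BM-252, and the list had 0 rises without BM-35 or BM-245. There were 2 rises without 18-month male BM-38, 3-month female BM-243 or male BM-251 and with abundance offsets, 3 without 18-month female BM-36 or 3-month male BM-253, and 4 with total counts. Without BM-253 there were also 2 falls. Among 30 members beside eosinophil, basophil and mast cell genes, 3 rose and 3 fell, 6 calls against the 20.9% of all members called. The 3 rises became 0 without 18-month female BM-36 and with width offsets. They became 1 without 18-month female BM-35, 3-month females BM-243 or BM-244 or male BM-251, and with abundance offsets. The falls were 2 peaks between Slc43a3, at 3.13 and 5.91 kb, and Prg2, the eosinophil major basic protein gene, at 18.8 and 16.04 kb (-0.71 and -0.53), and the peak between Ccr3 and Ccr2.

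Of 915 intervals with at least 5 tested members, 2 had every member lower and 0 had every member higher. The second of the 2, between Polr3d and Bmp1 (chr14:70456981-70471198), held 5 members that summed to 63.9 to 75.9 CPM at 18 months and 101 to 140 at 3 months. Intervals were then picked for their number of calls, so their counts are a description, where 7.35% of all members fell and 13.6% rose. The intervals with the most falls were Hdhd5 to Cecr2 (9 of 17 members), Katnal1 to Hmgb1 (9 of 21), Hbb-y to Olfr66 (7 of 7), St6galnac3 to Asb17 (7 of 12) and Cd24a to Qrsl1 (7 of 17, with 1 rise). In the last, the steepest fall (chr10:43608588-43610175) went from a median of 34.5 to 16.4 CPM, a change of -1.04 ± 0.11 (edgeR adjusted p = 1.91e-10). A peak at the other end of the same interval (chr10:43856081-43856906) rose by 0.53. The Katnal1 to Hmgb1 falls became 5 without 18-month female BM-35 and 5 with total counts. Both directions occurred in 93 intervals.

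The intervals with the most rises were Esp34 to Esp31 (12 of 18 members), Gm32719 to Gm40881 (12 of 19), Speer4d to Speer4c (11 of 24), Gm40847 to LOC115488029 (10 of 20) and Vmn2r49 to Vmn2r50 (8 of 11), with 0 falls in any, where 13.6% of all members rose. Esp genes encode secreted peptides that act as pheromones, and Vmn2r genes encode receptors of the vomeronasal organ. Summed levels in Esp34 to Esp31 (chr17:38563631-38635459) were 223 to 273 CPM at 18 months and 143 to 205 at 3 months, with no overlap. In Speer4d to Speer4c they were 328 to 423 against 224 to 337 and overlapped, and total counts gave 17 rises there. Without 18-month male BM-38 the Vmn2r49 to Vmn2r50 rises became 4, and without 3-month female BM-245, male BM-251 or male BM-253 they became 5. Genes of the Esp, Speer and Vmn families stand in clusters of similar copies, and how reads that match several copies were placed is not given in the sources used here, so the level of any 1 of these peaks is uncertain.

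Gene families were then counted over all members, a grouping that the 5 intervals with the most rises prompted, so each count is given with and without them. Over all members 13.6% rose and 7.35% fell. With an Esp gene on both sides, 20 of 30 members rose (66.7%) and 0 fell, and 8 of 12 rose outside those intervals. For Speer genes it was 12 of 26 (46.2%) and 0, with 1 of 2 outside them. For vomeronasal receptor genes (Vmn) it was 33 of 96 (34.4%) and 0, with 25 of 85 outside them. With olfactory receptor genes on both sides 14 of 79 rose (17.7%, near the share of all members) and 1 fell (1.27%). The 14 rises became 4 without 3-month female BM-245 and 8 without 18-month male BM-39 or 3-month male BM-251. They became 9 without 18-month female BM-42 or male BM-38. Width offsets gave 5 and abundance offsets 8. Predicted genes (Gm, LOC or Rik symbols) on both sides gave 142 rises (33.6%) and 4 falls (0.948%) among 422. Outside those intervals they gave 120 rises and 4 falls among 383. The 13052 members with no flanking gene of these kinds had 1615 rises (12.4%) and 1023 falls (7.84%).

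Members that wholly held a lncRNA promoter window numbered 248, and 28 rose (11.3%, against 13.6% of all members) while 40 fell (16.1%, against 7.35%). Their median width was 1175 bp against 619 for all members, and their median level 14.9 CPM against 6.20. Of the 3807 members of highest level (median 14.5 CPM), 15.7% fell and 19.1% rose. The share of falls was thus close to that of members of like level, while the share of rises was lower. Whether the 248 differed from other members of like width and level was not tested. Falls outnumbering rises rested on the scaling, since total counts gave 54 rises and 33 falls and width offsets 36 and 35. The rises became 18 without 3-month female BM-245 and 43, against 41 falls, without male BM-253. The peak over Gm35889, between Cebpa, the master factor of the granulocyte lineage, and Slc7a10 (chr7:35156409-35157565), stood at 10.3, 11.9 and 13.5 CPM against 6.64, 8.58 and 9.91 and rose by 0.52 ± 0.13 (edgeR adjusted p = 0.00261). It lay 35.1 kb from Cebpa. Over Gm41485, between Map3k7cl and Bach1, the rise was 0.66. The peak over 5430401H09Rik, between Prkar2b and the myeloid kinase gene Pik3cg, stood at 14.2, 16.2 and 19.8 CPM against 26.6, 33.4 and 40.04 and changed by -1.01 ± 0.11. Over Gm32900, between Cd2 and Igsf3, the change was -1.01, and over Gm39783 it was -0.93. At these 5 peaks the ages did not overlap, which the rule for choosing them required.

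Of the 12 members that touched a miRNA hairpin, 2 passed the age threshold, where 20.9% of all members and 21.0% of all tested peaks passed. The peak over Mir8096, between A630001G21Rik and Cab39, rose by 0.42 ± 0.12 (edgeR adjusted p = 0.0063) and stood at 14.6 to 19.4 CPM against 10.5 to 14.5. The peak over Mir5103, beside Ccdc115, also rose by 0.42 but overlapped between ages (adjusted p = 0.0443). That call did not hold in every fit that left out a library. The miR-17-92 peak (chr14:115043678-115044989) stood at 7.65, 8.59 and 12.1 CPM at 18 months and 6.36, 8.19 and 12.7 at 3 months, a change of 0.05 ± 0.15 that did not pass (adjusted p = 0.845). Nor did the peak over Mir155, an miRNA of activated immune cells, at 3.57 to 5.26 CPM against 3.70 to 5.29 (change -0.04 ± 0.18).

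Within females, 1214 members rose (7.97%) and 685 fell (4.50%) with age, against 5.70% and 6.20% of all tested peaks (11.9% in either direction). Within males 702 rose (4.61%) and 676 fell (4.44%), against 3.21% and 8.18% (11.4%). The 368 members lower in both sexes were 53.7% of the female and 54.4% of the male falls, and the 145 higher in both were 11.9% and 20.7% of the rises. The shares were not tested against each other. Counts within a sex moved with single libraries. Female rises became 617, 497, 576 and 510 without 18-month female BM-35 or BM-36 or 3-month female BM-245 or BM-244, and female falls became 447, 437 and 412 without the first 3 of these. Male rises became 384, 336, 405 and 323 without 18-month male BM-38, BM-39 or BM-40 or 3-month male BM-251, and male falls became 384 without the last. Total counts gave 1304 rises and 431 falls in males, 75.2% rises against 50.9%, but also moved the male median over all peaks from 0.03 to 0.14.

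At 1 member, females and males differed in their age effect (edgeR interaction test). Over all peaks 0.00532% were called, and 1428 members had an unadjusted p under 0.05. It lies 18.7 kb upstream of Foxp4, a forkhead repressor gene (chr17:47943174-47943589). Females stood at 6.14, 7.07 and 8.58 CPM at 18 months and 2.85, 3.01 and 4.29 at 3 months, and males at 2.89, 3.20 and 3.31 against 4.25, 5.58 and 6.99. The age effect was 1.10 ± 0.25 in females and -0.83 ± 0.26 in males, a difference of -1.93 ± 0.37 (adjusted p = 0.0404). No member passed without 18-month female BM-35 or BM-36, 18-month male BM-38, BM-39 or BM-40, 3-month female BM-245 or BM-244, or 3-month male BM-251. Without 18-month female BM-42 there were 2, and without 3-month male BM-252 there were 246.

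The 5 members with the highest mean CPM lay between Rpusd4 and Cdon (751 to 1108 CPM at 18 months and 886 to 1169 at 3 months), Col19a1 and Lmbrd1, Ly6c1 and Ly6c2, Polr3k and Gm40035, and Gtpbp4 and Larp4b. Over both sexes their log2 changes lay between -0.20 and 0.10, none passed the threshold, and the ages overlapped at each. Within females, the peak between Rpusd4 and Cdon fell by 0.37 ± 0.10 on the log2 scale (edgeR adjusted p = 0.0115).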

How the data were processed

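The authors deposited read counts for 75281 consensus peaks in 12 libraries, and the smallest value in the table was 1, which compresses changes of the lowest peaks. Trimmomatic, BWA, MACS2, DiffBind, edgeR and the build mm10 are named in the submitters' processing notes. The rule for the consensus, removal of duplicates, any shift to the cut site and the handling of reads that match several places are not given in the sources used here. Duplicates left in would make counting error look small. Genes and positions came from RefSeq on GRCm38.p6, the same assembly as mm10. The reference strain is C57BL/6J, not NZO. One peak with an inexact start was left out of the members, and 0 columns were unused.

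The 75164 peaks that exceeded 1 CPM in 2 libraries or more entered edgeR 4.0.16 in R 4.3.3 (TMM factors, glmQLFit and glmQLFTest), over all 12 libraries with sex and age as terms, or with 4 group means for effects within a sex and the interaction. Benjamini-Hochberg adjustment ran over the 75164 peaks at a threshold of 0.05, and the SE came from the F statistic. CPM used the TMM-scaled totals. A level of 3 counts was 0.235 to 0.391 CPM over the libraries, which covers counting error only. The test was checked on simulated data.

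Named were the 10 largest rises and 10 largest falls with age among members past the threshold, at or above the median level and with no overlap between ages. Up to 4 members with the smallest p beside each of 10 gene lists, the 5 intervals with most rises and most falls, any interaction call and the 5 highest members were named too. The members and lists were chosen with earlier results of these data known. The families, the lncRNA and miRNA members and the interval with every member lower were chosen after the values were seen. The planned motif search in the peaks was not run, since no genome was used here. Alternatives were total counts, abundance or width offsets, DESeq2 1.42.0, no filter, other membership rules and leaving out each library.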

Additional observations from a re-analysis of the deposited data

Results flagged for a closer look

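The members picked singly by the naming rules, not all of them described above, were checked for outlying libraries. At each, the 6 libraries of each age were searched for 1 that stood apart (Dixon's test at the 95% level). Of 162 such groups, 6 had one, and chance gives about 1 in 20. At the Ccl17 peak, 3-month male BM-252 stood at 10.0 CPM and the other younger libraries at 17.6 to 19.0. At the Trem1 peak, 18-month male BM-40 stood at 14.3 CPM, above 6.80 to 8.97. Near Cd14, on the side of E230025N22Rik, 3-month male BM-253 stood at 29.3 CPM, above 14.4 to 18.2. At the Fosl2 peak the same library stood at 27.6 CPM, above 15.6 to 19.98. Near Itgb3, a platelet integrin gene, 3-month male BM-252 stood at 6.46 CPM, above 3.01 to 4.07. Over Mir7685, near D630003M21Rik, 18-month male BM-39 stood at 3.09 CPM, above 1.51 to 2.08. The Foxp4 peak stood out because its age effect differed between the sexes, by -1.93 on the log2 scale as males minus females (edgeR interaction test, adjusted p = 0.0404).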

How the results depend on the processing

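With total counts, 3142 members rose with age (sex as covariate), and 1304 rose and 431 fell in males, against 2069, 702 and 676 with TMM factors. The interaction count of 1 became 2 with abundance offsets, 2 with DESeq2 and 0 with no filter. Leaving out 1 library gave 1452 to 2556 rises and 943 to 1284 falls with age. It gave 497 to 1575 rises and 412 to 867 falls in females, 323 to 1026 rises and 384 to 859 falls in males, and 0 to 246 interaction calls. Of 81 members picked singly by the naming rules, not as part of an interval, 61 were called. Of these, 1 to 5 lost their call without a library. These lay nearest to Ccdc115 (the Mir5103 peak), Xbp1, Plek, Sdr39u1, Bank1, Klrb1c and Ccl5, and none was among the 20 chosen for large changes without overlap. No paired analysis was possible because no mouse number was shared between groups. The causes were not tested. Of the 3808 members of lowest level 399 passed the age test, against 1326 of 3807 of highest level, and the part of depth in this was not tested.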
